A study of Caenorhabditis elegans with 7 samples.

Results

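The transcripts described here are 9 genes of SKN-1 and of glutathione synthesis and recycling in *C. elegans*. They were taken from a fixed list of symbols, *skn-1*, *wdr-23*, *gcs-1*, *gclm-1*, *gss-1*, *gsr-1*, *trxr-1*, *sdz-8* and *nit-1*, and found on the array through the sequence name or RefSeq accession of each probe. All 9 had a matched probe, of 19859 genes with one, and all 9 were among the 14224 genes tested. Together they were read by 18 probes, and 18 of the 18 gave a signal well above background on all 7 arrays.

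RNA came from whole N2 worms, the Bristol wild type with no added allele. The worms were grown at 25 °C on OP50 bacteria and were exposed from the L4 stage to 25 μM tomatidine, the steroidal aglycone of a tomato glycoalkaloid, or to the vehicle, DMSO. They were collected on adult day 7. Vehicle has 4 arrays of Cy3-labeled cRNA and tomatidine has 3. One source name in the labels calls the control worms untreated, while the treatment label and the methods name the vehicle. The methods describe 1 hybridization of combined preparations that is not identified, so the arrays may not all be independent, and the p values make no allowance for that. Whether plates for RNA held the drug FUdR, which blocks production of offspring, is not given in the sources used here.

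SKN-1 is the worm relative of mammalian Nrf2, a transcription factor that switches on antioxidant and detoxification genes, in adults mainly in the intestine. It is controlled largely at the level of the protein. WDR-23 brings it to the CUL-4/DDB-1 ubiquitin ligase for degradation, and kinases such as PMK-1 promote its entry into the nucleus, so transcripts of its targets are a common readout of its activity. Glutathione, the main small thiol of the cell, is made from glutamate, cysteine and glycine in consecutive steps, by glutamate-cysteine ligase and then by glutathione synthetase. Glutathione reductase returns the oxidized form to the reduced one with NADPH.

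Levels are given as scaled log2 signal, in which 0 is the mean of all probes on an array. Each array was brought from its own SD of log2 intensity, 3.74 to 4.21, to the mean of 4.05, so 1 unit is near a doubling of intensity but not exactly one on any array, and folds take it as one. Levels of different probes are not comparable, since each probe has its own brightness. From 53.04% to 69.7% of all probes were well above background, and the lowest share was on vehicle replicate 2. That array also had the highest net signal of negative controls, 424.4, with tomatidine replicate 1 next at 237.2 and the other arrays between 75.1 and 114.4. Vehicle replicates 1, 2 and 3 and tomatidine replicate 1 lay on slide 1, and the other 3 arrays on slide 2. Markers of intestine (6 of 6 genes), body wall muscle (6 of 6), neurons (7 of 7) and germline (7 of 7) were among the genes tested, as were 2 of 4 markers of the hypodermis. Sperm markers were dim, with list means below 0 on every array. In bulk RNA of this kind, fewer cells of a type and less RNA per cell cannot be told apart.

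The comparison asked whether transcripts of the SKN-1 and glutathione genes differed between tomatidine-treated and vehicle-treated worms. None of them moved past limma's threshold, an adjusted p under 0.05: the count was 0 of 9 in either direction, where 0.0773% of all genes tested passed, all of them higher with tomatidine and 0.00% lower. Before adjustment the count with limma p under 0.05 was 0 of 9, against 1.22% of all genes. It was also 0 by the general test that the methods name for comparing groups. The 1.22% is less than the share of 0.05 expected where nothing changes, so limma's test may miss changes here. For each of the 9 the arrays of the groups overlapped, while 2.08% of all genes had groups apart. Log2 fold changes lay between -0.34 and 0.27, with 3 above 0, against 45.3% of all genes, and 6 below. Their median was -0.10, and that of all genes tested was -0.03. The adjusted p was 0.9998 for each of the 9.

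**Figure D1:**
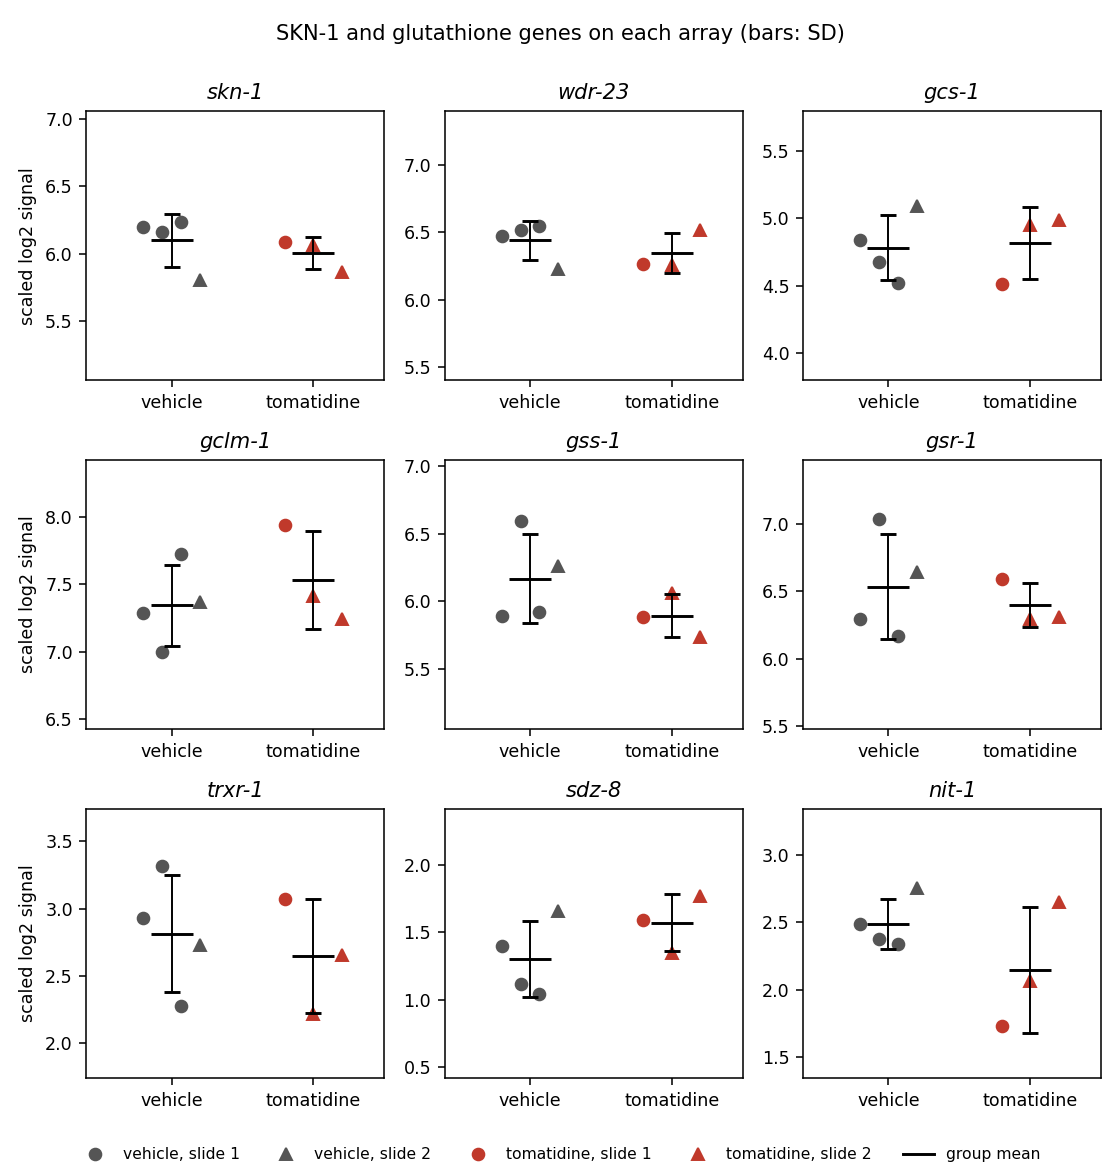
Scaled log2 signal (vertical axis, 2 units high in each panel) of the 9 genes on the 4 vehicle and 3 tomatidine arrays, with circles for slide 1, triangles for slide 2, and the group mean with its SD in black. Points of the groups overlap in every panel, and for *skn-1* and *gcs-1* the symbols of the slides do not.

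*skn-1* (T19E7.2, chromosome IV) encodes the transcription factor itself. Its brightest probe, named for the b transcript, read 6.20, 6.16, 6.23 and 5.81 on vehicle replicates 1 to 4 and 6.09, 6.06 and 5.87 on tomatidine replicates 1 to 3. Vehicle replicate 4 and tomatidine replicate 3, both on slide 2, were the lowest. The means were 6.10 ± 0.20 (SD, n = 4) and 6.005 ± 0.12 (SD, n = 3), a log2 fold change of -0.09 (standard error 0.19, 95% confidence interval -0.51 to 0.32). On this probe the residual spread was small, at the 7.71th percentile of all genes tested. Among all probes well above background on 3 arrays or more, it stood at percentile 6.31. The dimmer *skn-1* probes stood at 90.3 and 82.9.

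*wdr-23* (D2030.9, chromosome I) encodes the adaptor through which SKN-1 is degraded. On its brightest probe vehicle arrays read 6.47, 6.51, 6.54 and 6.23 and tomatidine arrays 6.26, 6.26 and 6.51. There vehicle replicate 4 and tomatidine replicates 1 and 2 formed a lower level and the other 4 arrays a higher one, with both groups in each. The log2 fold change was -0.10 (standard error 0.19, interval -0.50 to 0.31), and the residual spread stood at the 4.12th percentile. The other probes named for the same transcript repeated these levels only in part. On them vehicle replicate 4 was again the lowest array, at 5.70 and 5.63. Tomatidine replicate 3 was the lowest tomatidine array, at 5.81 and 5.79.

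Glutamate-cysteine ligase catalyzes the rate-limiting step of glutathione synthesis. *gcs-1* (F37B12.2, chromosome II), its catalytic subunit and the classical SKN-1 target in the worm, read 4.84, 4.67, 4.52 and 5.09 with vehicle and 4.51, 4.95 and 4.99 with tomatidine. The 3 arrays of slide 2 were highest in both groups, and tomatidine replicate 1 and vehicle replicate 3 were lowest. The means were 4.78 ± 0.24 (SD, n = 4) and 4.81 ± 0.27 (SD, n = 3), and the log2 fold change of 0.03 (standard error 0.20, interval -0.40 to 0.47) was smaller in size than that of most genes, at the 12.2th percentile. A rise of *gcs-1* beyond 1.38-fold lay outside its interval. Markers of the intestine, where SKN-1 acts in adults, had list means of 3.87 to 4.36 with vehicle and 4.12 to 4.28 with tomatidine, so that tissue was sampled in both groups. Their median log2 fold change was 0.14, with 5 genes above 0 and 1 below, and their part in the *gcs-1* values was not tested.

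*gclm-1* (E01A2.1, chromosome I) encodes the modifier subunit of the same enzyme. It read 7.29, 6.99, 7.72 and 7.37 on the vehicle arrays and 7.94, 7.41 and 7.24 on the tomatidine arrays. Tomatidine replicate 1 was highest and vehicle replicate 2 lowest, and these arrays share a tag in the labels. The log2 fold change was 0.19 (standard error 0.25, interval -0.34 to 0.71). It was -0.02 without tomatidine replicate 1 and 0.33 without tomatidine replicate 3.

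*gss-1* (M176.2, chromosome II) encodes glutathione synthetase, the second enzyme of the route. It read 5.89, 6.60, 5.92 and 6.26 with vehicle and 5.89, 6.06 and 5.74 with tomatidine. Vehicle replicates 2 and 4 were above all tomatidine arrays, and vehicle replicates 1 and 3 lay among them. The means were 6.17 ± 0.33 (SD, n = 4) and 5.89 ± 0.16 (SD, n = 3), with a log2 fold change of -0.27 (standard error 0.22, interval -0.73 to 0.19). Without vehicle replicate 2 it was -0.13.

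Recycling enzymes gave values of the same kind. *gsr-1* (C46F11.2, chromosome III), glutathione reductase, read 6.29, 7.04, 6.17 and 6.64 on the vehicle arrays and 6.59, 6.30 and 6.31 on the tomatidine arrays. *trxr-1* (C06G3.7, chromosome IV), the cytosolic thioredoxin reductase and a selenoprotein, read 2.93, 3.31, 2.28 and 2.73 with vehicle and 3.07, 2.22 and 2.66 with tomatidine. Vehicle replicate 2 was the highest array for *gss-1*, *gsr-1* and *trxr-1* alike, the array with the high negative controls, and the part of its background in these values was not tested. The log2 fold changes were -0.14 (standard error 0.23, interval -0.63 to 0.36) for *gsr-1* and -0.17 (standard error 0.27, interval -0.73 to 0.40) for *trxr-1*. Without that array they were 0.03 and 0.00, and the farthest from 0 were -0.26 for *gsr-1* without vehicle replicate 3 and -0.38 for *trxr-1* without tomatidine replicate 1.

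*sdz-8* and *nit-1* are used as readouts of SKN-1 activity in the worm. *sdz-8* (C55A6.5, chromosome V), named as a SKN-1-dependent zygotic transcript, read 1.39, 1.11, 1.04 and 1.65 with vehicle and 1.59, 1.35 and 1.77 with tomatidine. The highest array was a tomatidine array, and vehicle replicate 4 came second. Its log2 fold change was the highest of the 9, at 0.27 (standard error 0.24, interval -0.24 to 0.78). *nit-1* (ZK1058.6, chromosome III), a member of the nitrilase family, read 2.49, 2.38, 2.34 and 2.75 with vehicle and 1.73, 2.06 and 2.65 with tomatidine. Tomatidine replicates 1 and 2 lay below every vehicle array, and replicate 3 lay above 3 of the 4. Its log2 fold change was the lowest, at -0.34 (standard error 0.24, interval -0.85 to 0.17), and was -0.13 without tomatidine replicate 1 and -0.59 without tomatidine replicate 3. These SKN-1 readouts differed in opposite directions, neither past the test.

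**Figure D2:**
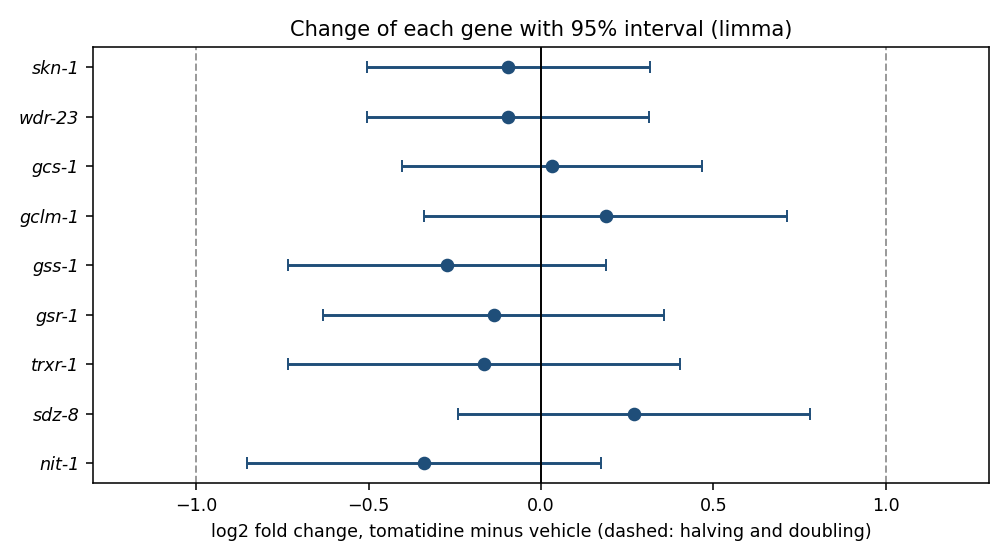
Log2 fold change of each gene (horizontal axis, tomatidine minus vehicle) with its 95% confidence interval from limma, and dashed lines at a halving and a doubling. All 9 intervals span 0 and lie between the dashed lines, from -0.85 for *nit-1* to 0.78 for *sdz-8*.

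For 9 of the 9 genes the 95% interval lay inside a halving and a doubling. The share of all genes with such an interval is not given here, so the count describes only the precision for these 9. In fold terms the lowest bound was 0.554-fold, for *nit-1*, and the highest 1.72-fold, for *sdz-8*. The count was again 9 in a fit blocked on the label tags, where 0.162% of all genes were called, and 8 in one blocked on the slide. The exception was *nit-1*, which in the slide fit had a log2 fold change of -0.54 with an interval of -1.03 to -0.05. Its p in that fit was 0.0321 unadjusted and 0.999 adjusted over all genes by limma, and 0.0562% of all genes were called there.

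*skn-1*, *wdr-23* and *gsr-1* have several probes, which can read different transcripts. The dimmer *skn-1* probes varied far more between arrays than the bright one. The probe named for the c transcript (T19E7.2c.1) read 2.82, 1.83, 1.20 and 1.64 with vehicle and 0.97, 2.75 and 1.60 with tomatidine, a range of 1.85 where the bright probe had one of 0.42. The third probe, with accession NM_171347, read 0.86, 0.00, 0.01 and -0.62 with vehicle and -0.28, 0.69 and -0.58 with tomatidine. Vehicle replicate 1 and tomatidine replicate 2 were the highest arrays on both of these probes, so the pattern crossed the groups. Even so, the group differences of the 3 *skn-1* probes were near each other, at -0.09, -0.10 and -0.12 on the log2 scale.

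Of the 6 *wdr-23* probes, the 3 named for the a transcript differed by -0.10, -0.18 and -0.21 between the groups. The probe of the b transcript, D2030.9b, differed by 0.14, and those of accession NM_001263616 by -0.17 and -0.21. On the last 3 of these probes tomatidine replicate 1 lay low, at 1.95 on that of the b transcript and at 1.57 and 0.84 on the others. It was lowest of all arrays on both probes of the accession, and second to vehicle replicate 2 (1.66) on that of the b transcript. The 3 *gsr-1* probes, all named for C46F11.2b.1, differed by -0.14, -0.31 and -0.06, and each had its highest value on vehicle replicate 2, at 7.04, 6.19 and 5.49. In all, 14 of the 18 probes had a difference below 0, and probes of a gene share its RNA and are not replicates.

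**Figure D3:**
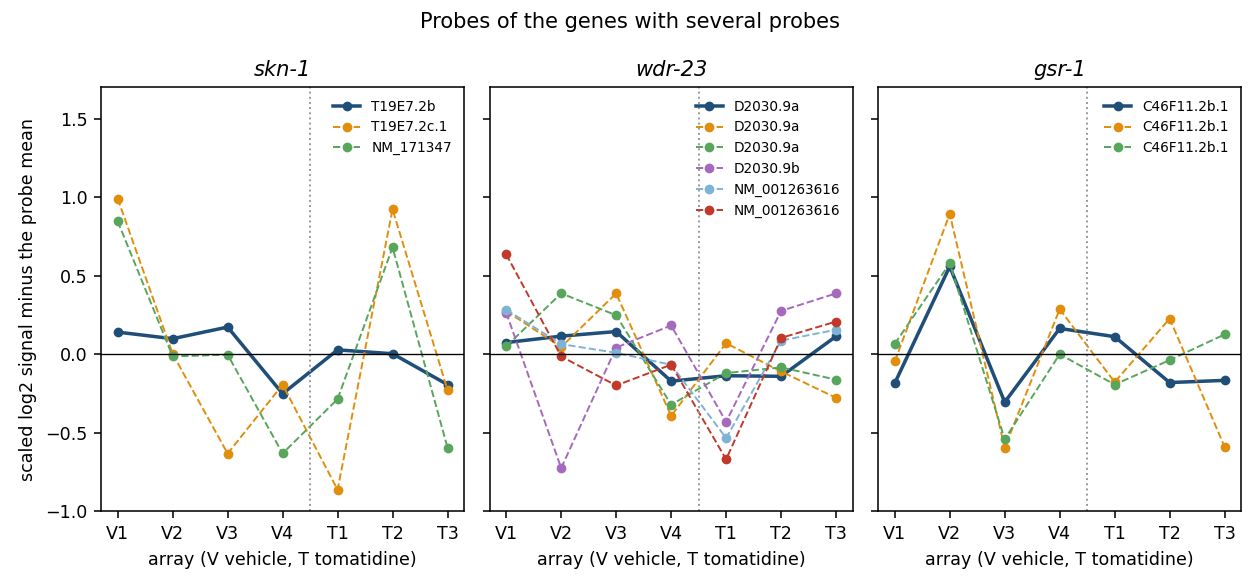
Scaled log2 signal of each probe of *skn-1*, *wdr-23* and *gsr-1* after subtraction of the mean of that probe over the 7 arrays (vertical axis), by array (V, vehicle; T, tomatidine). Lines join the values of one probe, the solid line is the probe that stands for the gene, and the order of arrays carries no meaning. The dimmer *skn-1* probes peak on V1 and T2, and the *gsr-1* probes on V2.

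Slides separated some of these genes more than treatment did. On the brightest *skn-1* probe the 4 arrays of slide 1 lay between 6.09 and 6.23 and the 3 of slide 2 between 5.81 and 6.06. For *gcs-1* the order was the opposite, 4.51 to 4.84 on slide 1 and 4.95 to 5.09 on slide 2. The dimmer *skn-1* probes did not separate the slides. That of the c transcript read 0.97 to 2.82 on slide 1 and 1.60 to 2.75 on slide 2. The second brightest *wdr-23* probe, also of the a transcript, read 6.13 to 6.47 on slide 1 and 5.70 to 5.98 on slide 2. By the brightest probe of each gene, the slides did not overlap for 2 of the 9 genes and for 14.3% of all genes. Between slides, *gcs-1* differed by 0.41 in vehicle-treated and by 0.46 in tomatidine-treated worms, against 0.03 between the groups. Within slides its treatment difference was below 0 on both, at -0.17 and -0.12, although pooled it was above 0. Germline markers varied over the same arrays, with list means between 8.31 and 9.14 with vehicle and between 8.48 and 9.07 with tomatidine. Their 7 genes had a median log2 fold change of -0.03, and their part in the *skn-1* values, which in the worm include maternal transcripts, was not tested.

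Within-slide differences kept one sign for 3 of the 9 genes, against 49.96% of all genes. Besides *gcs-1*, these were *gss-1*, at -0.25 and -0.36, and *nit-1*, at -0.67 and -0.40. *gclm-1* went from 0.60 on slide 1, where tomatidine replicate 1 was the lone tomatidine array, to -0.04 on slide 2. *sdz-8* went from 0.41 to -0.09.

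Tags in the labels join tomatidine replicates 1, 2 and 3 with vehicle replicates 2, 3 and 4. Across these 3 pairs the sign was the same for 3 of the 9 genes and for 23.7% of all genes. *sdz-8* was higher with tomatidine in 3 of 3 pairs, by 0.48, 0.30 and 0.12. *nit-1* was lower in 3 of 3, with differences of -0.65, -0.28 and -0.10, as was *trxr-1*, with -0.25, -0.06 and -0.07. Glutathione synthetase, *gss-1*, had -0.71, 0.14 and -0.52. For *gclm-1* the first pair differed by 0.94 and the others by -0.31 and -0.12, the widest disagreement among the 9 genes.

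**Figure D4:**
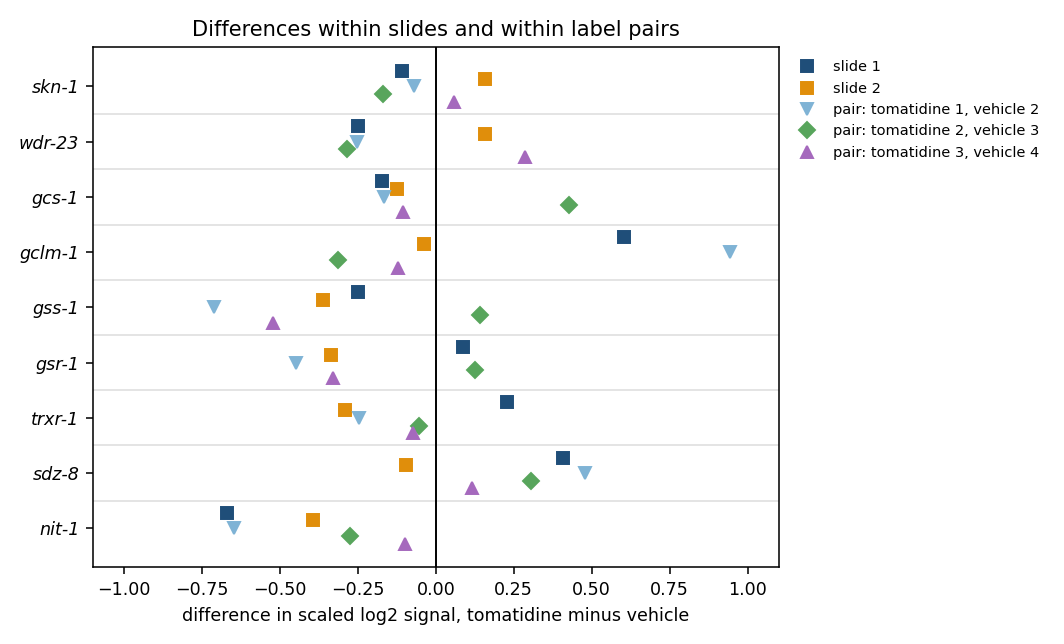
Difference in scaled log2 signal (horizontal axis, tomatidine minus vehicle) of each gene within slide 1, within slide 2, and in each pair of arrays that share a label tag. Points of most genes fall on both sides of 0, and those of *nit-1* all lie below it, between -0.67 and -0.10.

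Genes that act on SKN-1 or share its functions were also examined, from 8 lists of gene names that hold 77 further genes tested. Of these 77, 0 passed limma's test, against 0.0773% of all genes tested. The count with an unadjusted limma p under 0.05 was also 0, against 1.22% of all genes. At such shares few or no genes would come up in lists of this size. Of 19 genes that act on SKN-1, among them the kinase genes *nsy-1*, *sek-1* and *pmk-1* and the ligase genes *cul-4* and *ddb-1*, 8 had log2 fold changes above 0 and 11 below. Their median was -0.03 and their range -0.36 to 0.64. The smallest p values belonged to *xrep-4*, which regulates SKN-1, with -0.36 (standard error 0.21), and *png-1*, whose enzyme deglycosylates the SKN-1A form, with -0.31 (standard error 0.18). *ddb-1* and *cul-4*, the partners of WDR-23, had -0.03 and 0.03.

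Detoxification genes that depend on *skn-1* had 7 of 8 members tested, and *gst-4* had no matched probe here. Their log2 fold changes lay between -0.30, for the dehydrogenase gene *dhs-8* (standard error 0.37), and 0.16, for *gst-38*, with a median of 0.07. *gst-13*, a glutathione S-transferase, had 0.13 (standard error 0.23). Of the 5 endoderm genes below maternal SKN-1 in the embryo, 3 were tested, and *end-1* and *end-3*, GATA factors, had 0.31 (standard error 0.57) and -0.07 (standard error 0.28). *end-1* was dim, with a vehicle mean of -2.40, and was well above background on only 3 vehicle and 2 tomatidine arrays.

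Enzymes that use glutathione as an electron donor or cofactor numbered 19, with a median of 0.03 and a range of -0.48 to 0.42. *gpx-1*, a glutathione peroxidase, had 0.42 (standard error 0.25), and *glod-4*, a glyoxalase, -0.23 (standard error 0.20). Glutathione breakdown had 5 genes tested, with a median of 0.16, among them the γ-glutamyltransferase gene *C53D5.5* at 0.41 (standard error 0.26) and the 5-oxoprolinase gene *Y38F2AR.12* at -0.30 (standard error 0.21).

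The thioredoxin system, the other thiol route of the cell, had 9 genes tested and a median of 0.07. *trxr-2*, the mitochondrial thioredoxin reductase, had -0.41 (standard error 0.25), beside -0.17 for the cytosolic *trxr-1*, and *trx-3* had -0.63 (standard error 0.55). Enzymes that supply NADPH to both reductases had a median of -0.04 over 9 genes. *gspd-1*, glucose-6-phosphate dehydrogenase, had -0.16 (standard error 0.19), and *nnt-1*, the transhydrogenase, 0.24 (standard error 0.31).

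The study also concerned mitophagy, the removal of damaged mitochondria, and 6 worm genes of mitophagy and mitochondrial stress had log2 fold changes between -0.19 and 0.04, with a median of 0.00. The mitophagy receptor gene *dct-1* had -0.10 (standard error 0.20) and the kinase gene *pink-1* had 0.04 (standard error 0.19). *atfs-1*, the factor of the mitochondrial unfolded protein response, had -0.19 (standard error 0.22).

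**Figure D5:**
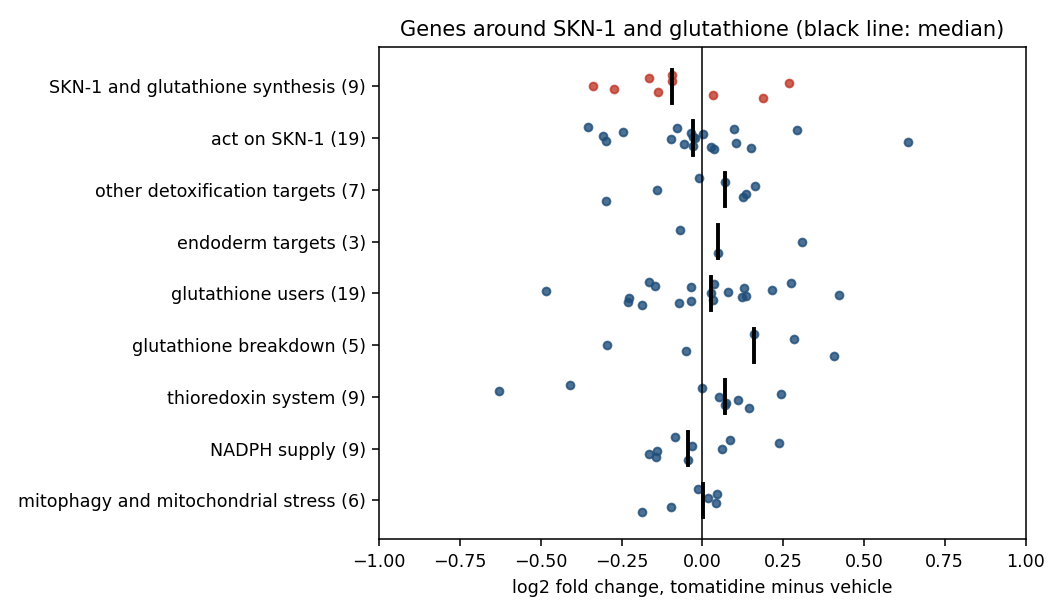
Log2 fold change (horizontal axis, tomatidine minus vehicle) of each gene tested, by list, with the number of genes in brackets, the 9 SKN-1 and glutathione synthesis genes in red and each median as a black line. Medians lie between -0.10 and 0.16, and no point passed limma's test.

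Finally, the genes whose signal followed *skn-1* and *gcs-1* most closely over the 7 arrays were listed. For *skn-1* they were *ppw-2*, *sms-1* and *oma-1*, with Pearson correlations of 0.989, 0.986 and 0.985. *oma-1* encodes an oocyte zinc finger protein. For *gcs-1* they were *fbxa-137*, *F10C1.8* and *dhp-2*, with 0.996, 0.992 and 0.991. Such values are a description only, since the 7 arrays share 2 slides and 1 scaling, and 169 and 356 of the 14223 other genes had a correlation over 0.9 with *skn-1* and *gcs-1*.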

How the data were processed

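The authors hybridized Cy3-labeled cRNA made from 200 ng of total RNA to 1-color Agilent *C. elegans* arrays and scanned and extracted them with Feature Extraction 11.5.1.1. The processed signal they deposited is an intensity after background subtraction and detrending, with no normalization across arrays. The header of vehicle replicate 2 gives 0 for the fit of multiplicative detrending, where the other arrays have 0.15 to 0.17. A value table deposited by the authors gives each log intensity as a score, a z-score within its array, and was used as an alternative.

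Control spots were excluded, which left 43603 probes, and RefSeq names of WBcel235 placed 34544 of these on a single gene. Spots with outlier marks were also excluded, and 86 probes had all their spots marked on an array and were dropped. The arrays follow another build, so no coordinates are given, and no table of sequences was used here. Log2 intensities were standardized within each array, following the methods, and rescaled by the average SD of all arrays. Probes had to be well above background on 3 arrays or more. Where several probes of a gene passed, the brightest on average was used. Groups were compared with limma 3.58.1 in R 4.3.3 (lmFit, eBayes with trend, two-sided, 5 residual degrees of freedom), with Benjamini-Hochberg adjustment over 14224 genes at 0.05. Precision is limited by the number of arrays. The fit was tested on simulated data.

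The members and lists were chosen with earlier results of these data known. All 9 members are named. Each list is represented by its genes past the test, or by the 2 of smallest p if it had none. *nsy-1*, *sek-1*, *pmk-1*, *cul-4*, *ddb-1*, *gst-38* and *pink-1* fall outside that rule and were chosen after their values were seen. The 3 genes that correlated best with *skn-1* and with *gcs-1* are also named.

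To check pairing, residuals around the group means were correlated over genes. Arrays with a common label tag gave r of 0.61, 0.19 and 0.51, and arrays with a common title number gave -0.53, -0.45 and -0.33. The tags were taken as pairs because each exceeded 0.1, although the sources used here do not say what they mean. The first and last of these pairs also lie on one slide. The first joins the arrays with the highest negative controls, vehicle replicate 2 (424.4) and tomatidine replicate 1 (237.2). The part of slide and background in these correlations was not tested. Other scalings, filters, blocks, left-out arrays and the methods' general test were tried as alternatives.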

Additional observations from a re-analysis of the deposited data

How the results depend on the processing

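In each of the 20 alternatives 0 of the 9 genes were called, and the lowest adjusted p for any of them was 0.988. *wdr-23*, *gss-1* and *nit-1* stayed below 0 in every alternative and *sdz-8* stayed above it. Log2 fold changes turned sign in 11 of 180 cases, all to values between -0.15 and 0.049. Many of the 180 could not turn. Limma without trend, the changed filters on dim probes and the general test left each of the 9 fold changes at its main value. The tag and title-number blocks gave the same fold changes as leaving out vehicle replicate 1 and vehicle replicate 4. With the slide as a block, *skn-1* had 0.015 and *gcs-1* -0.15. Leaving out 1 array in turn gave ranges that crossed 0 for *gcs-1* (-0.054 to 0.19), *gclm-1* (-0.016 to 0.33), *gsr-1* (-0.26 to 0.030) and *trxr-1* (-0.38 to 0.049), and *nit-1* lay between -0.59 and -0.13 and *skn-1* between -0.19 and -0.025. Without both vehicle replicate 2 and tomatidine replicate 1, *gclm-1* had -0.13. The list medians moved by less than the spread between arrays in 180 of 180 cases. These cases include limma without trend and the general test, under which the medians could not move. That yardstick is wide. The median of the detoxification genes that depend on *skn-1* was 0.068 in the main processing. It went to -0.11 with the tag block and to 0.29 without both vehicle replicate 2 and tomatidine replicate 1.

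Over all genes, 11 were higher and 0 lower in the main processing. The count of higher genes was 6 with limma without trend, 5 when a probe had to be above background on all 7 arrays, 0 by the methods' general test after adjustment, and 7 (without tomatidine replicate 2) to 11 when 1 array was left out. With the label tags as a replicate block it was 23, and 0 of the 9 genes were among them; with the title numbers as a replicate block it was 28, and 1 gene was lower. Without both arrays named above 1 gene was lower. The cause of these changes in count was not tested. The tag block changed no call among the 9 genes. Scaling turned the direction of none of the 9 genes: with the 75th percentile shift and with normexp and quantile normalization, *gcs-1* had 0.05 and 0.18, and *nit-1* -0.34 and -0.16. Some list medians near 0 did turn sign. That of the genes that act on SKN-1 went from -0.029 to 0.011 and 0.063 under these scalings, and that of the thioredoxin system from 0.071 to -0.016 with normexp.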
